A study of Mus musculus with 14 samples.

Results

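Rpl22 and Rpl22l1 are the 2 genes described here, of 23412 genes in the count table. They were chosen by name: every mouse of the study carries a floxed Rpl22, and Rpl22l1 is its paralog. Rpl22 encodes a protein of the large subunit of the cytosolic ribosome that binds RNA, and Rpl22l1 encodes a closely related protein that can take its place in the ribosome. Messenger RNAs of cytosolic ribosomal proteins carry a terminal oligopyrimidine tract that couples their translation to growth signals. Rpl22 is known to repress the expression of Rpl22l1, and Rpl22l1 rises in cells that lack Rpl22. In the RiboTag allele, Cre replaces the last exon of Rpl22 with a copy that carries an epitope tag, so that the gene is meant to stay active in the cells that express Cre.

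The libraries were made from lysates of mouse cerebral cortex. The control mice were Rpl22flox/flox;CamKCre+, and the mice with a knockout of Fmr1 (KO) were Fmr1X-Y;Rpl22flox/flox;CamKCre+. The floxed Rpl22 and the CamK Cre were therefore shared by both groups, and no mouse without them was analysed here. Camk2a promoters are active mainly in excitatory neurons of the forebrain, so a whole cortex also holds cells in which no recombination of Rpl22 is expected. No step that pulls down tagged ribosomes is named in the protocols, and the counts per gene do not separate the recombined allele from the unrecombined one. Age was not given in the sources used here. RNA-seq was done on 4 control mice (1, 3, 6 and 8) and 4 KO mice (2, 4, 5 and 7), and ribosome profiling, which sequences the mRNA fragments that ribosomes protect from nuclease (footprints), on 3 control mice (1, 3 and 9) and 3 KO mice (2, 4 and 10). Each RNA library has 2 columns of counts: one that covers the same genes as the footprints (called the matched column here) and one named exon. The region counted in the matched columns is not given in the sources used here.

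Total counts were 8847547 to 11371851 per RNA library in the matched columns, 16351772 to 20793293 in the exon columns and 4124065 to 6033030 per footprint library. Fmr1, the gene knocked out, was at 83.0 ± 8.37 CPM (a count divided by the TMM-scaled library size, times 1000000; SD, n = 4) in control RNA and 21.7 ± 2.40 (SD, n = 4) in KO RNA, with footprints at 111 to 115 CPM in the 3 control and 5.84 to 8.56 CPM in the 3 KO libraries, with no overlap between genotypes. The RNA libraries of KO mice 2, 4 and 7 were nearly identical, with chi-square values per degree of freedom between 1.18 and 1.32 for their 3 pairs, against 1.99 to 11.8 for the other RNA pairs of one genotype. The 6 footprint pairs of one genotype were as alike, at 1.15 to 1.42, and the footprint calls below rest on these. The genotype tests of the paralogs in the matched RNA columns are therefore also given with these 3 libraries summed to 1, which was not done for the exon columns, the outside counts, the shares or the ratio of the paralogs. Of the 6 markers of excitatory neurons, the cells in which the Cre is expected to act, none was at 0, 2 rose in KO RNA, and their summed level was 2088 to 2369 CPM in control and 2670 to 2963 CPM in KO libraries. In footprints the order was the opposite, with 4429 to 4532 CPM in control and 4183 to 4305 CPM in KO libraries, where 2 of the 6 were called higher and 1 lower. Over all genes, 7.41% were called in RNA and 25.5% in footprints. The 6 oligodendrocyte markers summed to 4888 to 5331 CPM in control and 4271 to 4598 CPM in KO libraries, with 1 of 6 called lower, and in footprints to 8213 to 8372 CPM and 8025 to 8067 CPM, with 1 called higher and 3 lower. In footprints the sums of the 6 inhibitory neuron markers did not overlap between genotypes, like the excitatory neuron and oligodendrocyte sums above. They were 1625 to 1671 CPM in control and 1698 to 1724 CPM in KO libraries (3 called higher and 1 lower). The share of all genes without overlap was not counted. In RNA the inhibitory sums overlapped, at 816 to 849 CPM and 819 to 957 CPM (1 called higher and 1 lower). Of 6 astrocyte markers 2 were called lower in RNA, but their sums overlapped, at 2992 to 3193 CPM in control and 3072 to 3808 CPM in KO libraries. The part of these lists in the results below was not tested, and in bulk tissue fewer cells of a type and less RNA per cell cannot be told apart.

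Rpl22 RNA was lower in the KO libraries. It stood at 87.6, 95.7, 103 and 97.5 CPM in control mice 1, 3, 6 and 8 and at 75.3, 77.0, 88.3 and 82.0 CPM in KO mice 2, 4, 5 and 7. The groups overlapped at one point only, where KO mouse 5 lay just above control mouse 1. The means were 95.9 ± 6.36 CPM (SD, n = 4) and 80.6 ± 5.83 CPM (SD, n = 4), a log2 fold change of -0.25 ± 0.067 (adjusted p = 0.0355, edgeR's quasi-likelihood test). Errors of log2 fold changes are standard errors here and below. Rpl22 was the 1 of the 2 paralogs called in RNA, at an adjusted p-value under 0.05. Of the 13507 genes tested in RNA, 7.41% were called (3.53% higher and 3.88% lower in the KO).

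The direction was the same within every set of libraries whose titles share a prefix, and the call was not the same throughout. KO to control log2 ratios of Rpl22 were -0.22 for mice 1 and 2, -0.31 for mice 3 and 4 and -0.24 for the means of mice 5 to 8. With the prefix as a block the log2 fold change was -0.25 ± 0.059 (adjusted p = 0.0243, edgeR). The call did not survive summing KO mice 2, 4 and 7 (-0.21 ± 0.092, adjusted p = 0.333, edgeR), nor did it hold with only mice 5 to 8 (-0.24 ± 0.10, adjusted p = 0.356, edgeR) or in the exon columns (-0.16 ± 0.14, adjusted p = 0.531, edgeR), where 8.55% of 14566 genes were called. It was also lost when mouse 2, 3, 4, 6 or 7 was left out, with adjusted p-values of 0.0679 to 0.132 (edgeR).

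Rpl22l1 RNA did not pass the test between genotypes, and its control libraries were far apart. Control mice 1, 3, 6 and 8 held 131, 153, 107 and 74.98 CPM, while KO mice 2, 4, 5 and 7 held 99.2, 99.4, 105 and 99.1 CPM. The KO libraries thus lay within the range of the controls, above control mouse 8 and below the other 3. The means were 116 ± 33.3 CPM (SD, n = 4) and 101 ± 2.93 CPM (SD, n = 4), a log2 fold change of -0.21 ± 0.15 (adjusted p = 0.435, edgeR). The coefficient of variation over the 4 controls was 28.6%, and 0.61% of the 10008 genes that averaged 10 CPM or more there had a larger one (median 7.82%). For Rpl22 it was 6.63%, with 60.2% of genes above it. In the KO libraries the coefficient was 2.91% for Rpl22l1 and 7.23% for Rpl22, but 3 of these 4 libraries are the nearly identical ones.

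The genotype difference of Rpl22l1 had opposite signs in mice 1 to 4 and in mice 5 to 8. Its KO to control log2 ratio was -0.40 for mice 1 and 2 and -0.62 for mice 3 and 4, and 0.17 for the means of mice 5 to 8. Fitted alone, mice 1 to 4 gave a log2 fold change of -0.51 ± 0.062 (adjusted p = 1.6e-06, edgeR) and mice 5 to 8 gave 0.17 ± 0.13 (adjusted p = 0.655, edgeR). The fit of mice 1 to 4 called 24.1% of 13591 genes and that of mice 5 to 8 called 0.652% of 13488. The KO arm of mice 1 to 4 consists of mice 2 and 4, which are among the nearly identical libraries (chi-square per degree of freedom 1.32). The test of the difference between these effects, added after the values were seen, gave 0.68 ± 0.16 (adjusted p = 0.152, edgeR). It called 0 of 13507 genes, with 1791 at an unadjusted p under 0.05. For Rpl22 the same difference was 0.031 ± 0.11 (adjusted p = 0.931, edgeR). Leaving out control mouse 8 brought Rpl22l1 to -0.37 ± 0.087 (adjusted p = 0.0115, edgeR; 13% of genes called), and leaving out control mouse 3 brought it to -0.051 (adjusted p = 0.858, edgeR). With KO mice 2, 4 and 7 summed it was -0.19 ± 0.20 (adjusted p = 0.743, edgeR), and with control mice 1 and 3 summed as well it was -0.087 ± 0.19 (adjusted p = 0.909, edgeR).

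**Figure D1:**
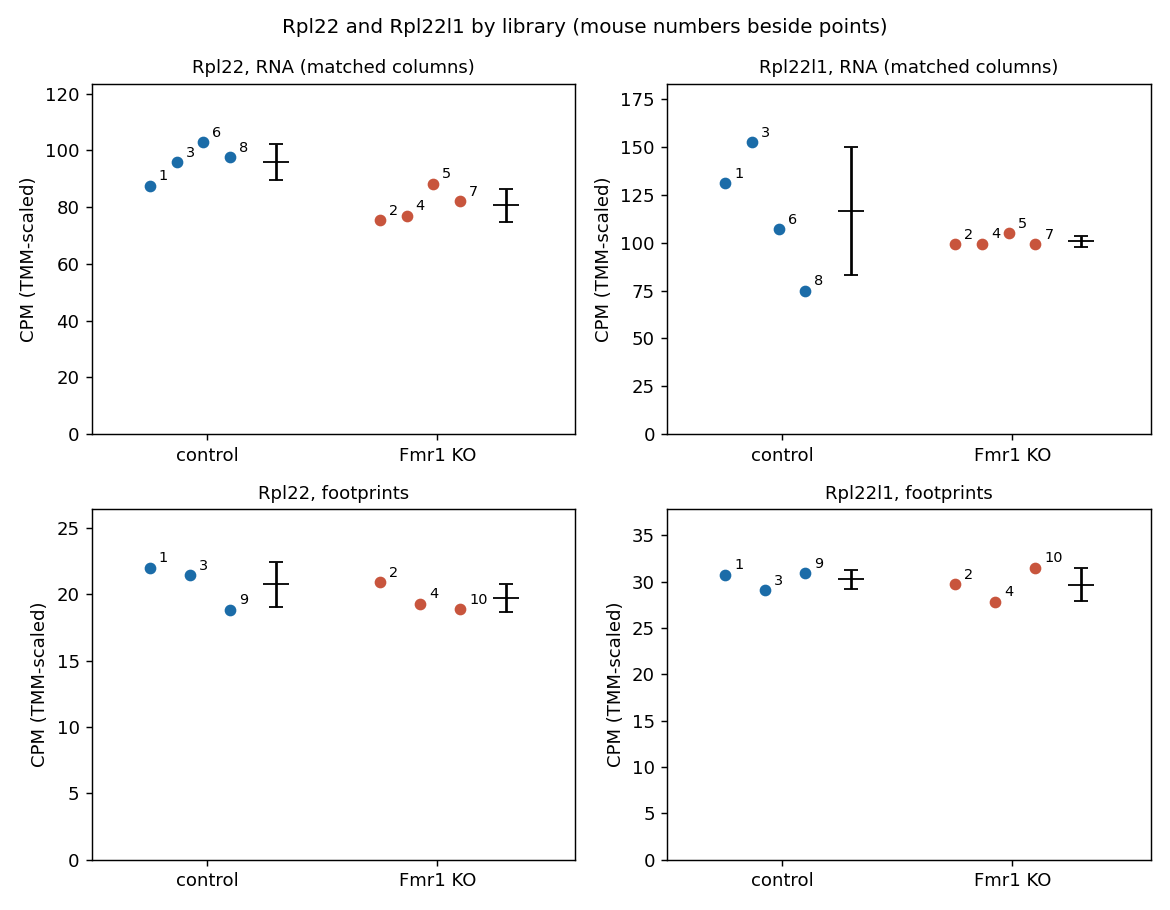
CPM (TMM-scaled, linear axes from 0) of Rpl22 and Rpl22l1 in each library, in RNA (top) and footprints (bottom); points are mice with their numbers, and bars are the group mean ± SD. Rpl22 RNA is lower in KO libraries with a small overlap, Rpl22l1 RNA runs from 74.98 to 153 CPM among the controls, and the footprint levels of both genes overlap between genotypes.

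Footprints of neither gene differed between genotypes beyond the spread of the libraries. Rpl22 footprints were 22.0, 21.4 and 18.8 CPM in control mice 1, 3 and 9 and 20.9, 19.3 and 18.9 CPM in KO mice 2, 4 and 10, from 86 to 126 counts per library. The means of 20.7 ± 1.69 CPM (SD, n = 3) and 19.7 ± 1.07 CPM (SD, n = 3) gave a log2 fold change of -0.071 ± 0.13 (adjusted p = 0.745, edgeR). The groups overlapped almost fully. Rpl22l1 footprints were 30.7, 29.1 and 30.9 CPM in the controls and 29.7, 27.8 and 31.5 CPM in the KO mice, from 124 to 174 counts per library. Their means of 30.2 ± 1.02 CPM (SD, n = 3) and 29.7 ± 1.83 CPM (SD, n = 3) gave a log2 fold change of -0.023 ± 0.11 (adjusted p = 0.905, edgeR). Neither of the 2 genes was called, in a comparison in which 25.5% of 12158 genes were (11.9% higher and 13.6% lower). With plain library sizes in place of TMM the balance of footprint calls turned, to 18.8% higher and 9.57% lower, and the median log2 fold change of all genes was 0.065. The wide spread of Rpl22l1 among control RNA libraries had no counterpart in control footprints, where its coefficient of variation was 3.37%. Control mice 6 and 8, the lowest in RNA, were not in the footprint set.

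Translational efficiency (TE), the footprint count of a gene relative to its RNA count, did not pass the test for either gene. In the 4 mice with both assays, the ratio of footprint CPM to RNA CPM for Rpl22 was 0.251 and 0.224 in control mice 1 and 3 and 0.278 and 0.251 in KO mice 2 and 4. For Rpl22l1 it was 0.234 and 0.190 in the controls and 0.299 and 0.280 in the KO mice, so that both KO values lay above both control values. The share of all genes that separate in this way in these 4 mice was not counted. Over all 14 libraries, the log2 change in TE was 0.17 ± 0.13 for Rpl22 (adjusted p = 0.482, edgeR) and 0.18 ± 0.25 for Rpl22l1 (adjusted p = 0.721, edgeR), with 7.81% of 12145 genes called (3.4% higher and 4.41% lower; with plain library sizes 8.93% were called, 6.08% higher and 2.84% lower). Restricted to mice 1 to 4 with the mouse as a replicate block, it was 0.15 ± 0.17 for Rpl22 (adjusted p = 0.614, edgeR) and 0.46 ± 0.14 for Rpl22l1 (adjusted p = 0.0123, edgeR), with 15.3% of 12185 genes called and the same nearly identical KO pair in RNA. In these mice the KO to control log2 ratios of Rpl22l1 footprints were -0.049 (mice 1 and 2) and -0.063 (mice 3 and 4), beside the RNA ratios of -0.40 and -0.62 above. Without control mouse 3 the TE change of Rpl22l1 over the other 12 libraries was -0.0083 (adjusted p = 0.9897, edgeR).

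Both genes had few footprints for their RNA. Their log2 ratio of mean footprint CPM to mean RNA CPM in controls was -2.21 for Rpl22 and -1.95 for Rpl22l1, against a median of -0.13 over 12145 genes, and 3.15% and 4.62% of genes had a lower ratio. The other ribosomal protein genes lay lower still, with a median of -3.48 over the 37 with enough counts in both assays, 31 of which were below Rpl22. Of those outside the 37, Rpl10 stood at 126 CPM in control RNA and 0.45 CPM in control footprints, and Rpl39 at 24.8 and 0 CPM. Whether the low ratios reflect translation or the way footprint reads were counted was not tested.

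Rpl22 differed between libraries most in the exon counts that lie outside its matched columns. These amounted to 317, 328, 507 and 616 counts in control mice 1, 3, 6 and 8 and to 317, 336, 725 and 354 counts in KO mice 2, 4, 5 and 7. Scaled by library, they were 39.5, 39.4, 69.8 and 83.5 CPM in the controls and 40.7, 37.6, 105 and 45.6 CPM in the KO mice. Control mice 6 and 8 and KO mouse 5 were thus well above the other 5 libraries, and the genotypes overlapped fully. In the whole exon columns the same 3 libraries were the highest, with 64.6, 68.3, 86.1 and 89.0 CPM in the controls and 59.0, 58.3, 93.6 and 64.7 CPM in the KO mice. For the outside counts, the log2 fold change between genotypes was -0.027 ± 0.30 (adjusted p = 0.978, edgeR), in a comparison in which 2.62% of 11983 genes were called, and its sign turned when mouse 2, 4, 6, 7 or 8 was left out.

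Within a library, the matched column held 73.3% and 73.8% of the Rpl22 exon counts in control mice 1 and 3, 64.7% in control mouse 6 and 61.9% in control mouse 8. It held 70.9%, 72.4% and 70.1% in KO mice 2, 4 and 7 and 51.1% (95% Wilson interval 48.6% to 53.7%) in KO mouse 5. The shares did not differ between genotypes by an exact two-sided permutation test (68.4 ± 6.02% and 66.1 ± 10.04%, SD, n = 4 each; p = 0.743), and without KO mouse 5 the difference turned to 2.71 percentage points higher in the KO. The share over all genes with both columns was 54.3% to 57.9% in the 8 libraries, so the range of Rpl22 was wider than that of the libraries as a whole.

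The log2 ratio of matched to outside counts was also taken as a deviation from its mean over the 8 libraries, less the median deviation of all genes in that library. For Rpl22 it was 0.44, 0.57, -0.15 and -0.49 in control mice 1, 3, 6 and 8. In KO mice 2, 4, 5 and 7 it was 0.17, 0.32, -0.98 and 0.13. The value in KO mouse 5 was the lowest of all 8266 genes with at least 50 counts in each part. In control mouse 8, 97 genes were lower, and in control mouse 6, 954 were. At the other end, 54 genes were higher in control mouse 1 and 40 in control mouse 3. Over the 8 libraries the standard deviation of this ratio was 0.52 for Rpl22, the 10th largest of the 8266 genes, whose median was 0.16. With at least 200 counts required in each part it was 0.52 and the 2nd largest of 4458 genes. The 3 negative deviations belong to control mice 6 and 8 and KO mouse 5, which carry the title prefix of mice 5 to 8, as does KO mouse 7 with a positive one.

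The 6 endothelium markers had their lowest summed RNA level in these 3 libraries, at 156 CPM in control mouse 6, 116 CPM in control mouse 8 and 131 CPM in KO mouse 5, against 206 to 218 CPM in the other 5. None of the 6 was at 0 in any group and 0 of 6 were called between genotypes in RNA by edgeR or DESeq2, with 0 at an unadjusted p under 0.05 in edgeR. In footprints 2 of the 6 were called higher and 1 lower, beside 25.5% of all genes called. The matched RNA level of Rpl22l1 was also lowest in control mice 6 and 8 among the controls, but not in KO mouse 5 among the KO mice. KO mouse 5 was also below the other KO mice in oligodendrocyte markers (4271 against 4558 to 4598 CPM) and above them in astrocyte markers (3808 against 3072 to 3105 CPM), inhibitory neuron markers (957 against 819 to 848 CPM) and excitatory neuron markers (2963 against 2670 to 2690 CPM). The 6 microglia markers summed highest in control mice 6 and 8 and KO mouse 5, at 381, 407 and 364 CPM. The other 5 libraries held 345 to 362 CPM. Among the controls, mice 6 and 8 were also the highest in excitatory and inhibitory neuron, oligodendrocyte and astrocyte markers. The part of these markers in any of these results was not tested.

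Rpl22l1 had almost no counts outside its matched columns. The outside count was 0 or 1 in 7 libraries and 6 in KO mouse 4, and the share of exon counts in the matched columns was 99.48% to 100% (95% Wilson intervals from 98.9% upward). The means were 99.92 ± 0.056% in controls and 99.87 ± 0.26% in KO mice (SD, n = 4 each; exact two-sided permutation test, p = 1). Of 6044 genes with at least 500 exon counts, 129 (2.13%) had a share of at least 99% over all libraries, and the median share was 59.4%. Exon and matched values of Rpl22l1 are therefore nearly the same measurement, whereas those of Rpl22 are not. RefSeq lists 2 pseudogenes of Rpl22, neither named in the count table, and a long noncoding RNA gene, 9430083M05Rik, whose span overlaps that of Rpl22. The strand setting of the counting is not given in the sources used here, and reads from these copies and from the overlapping gene cannot be told apart from those of Rpl22.

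**Figure D2:**
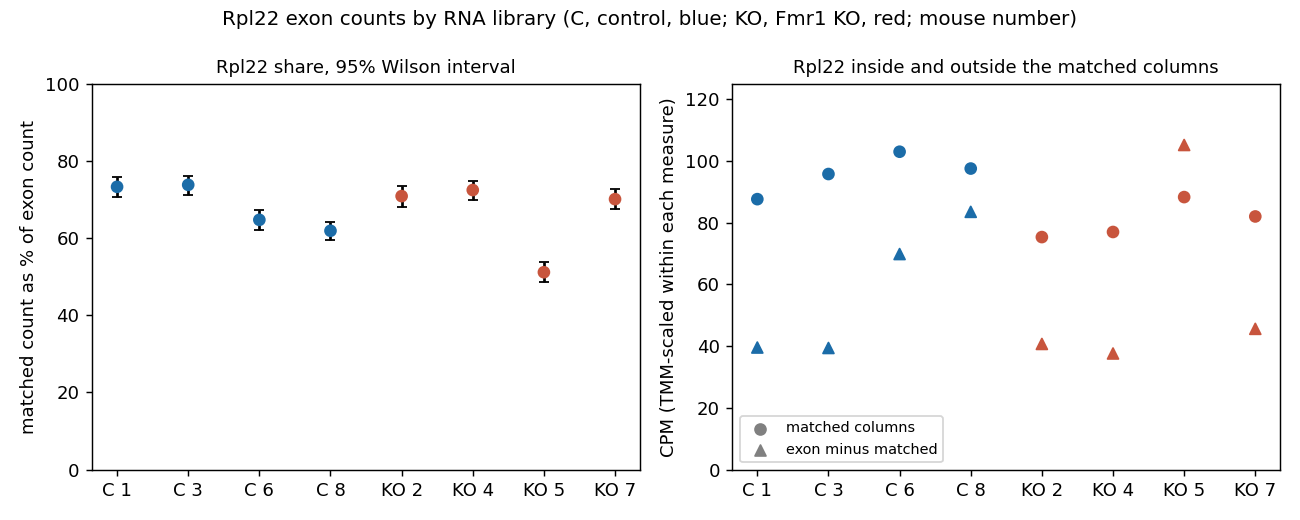
Left, the matched count as a percentage of the exon count of Rpl22 in each RNA library, with 95% Wilson intervals; right, CPM of Rpl22 in the matched columns (circles) and in the exon counts outside them (triangles), with controls (C) in blue and KO mice in red. Control mice 6 and 8 and KO mouse 5 have the lowest shares, and their outside levels of 69.8, 83.5 and 105 CPM exceed the 37.6 to 45.6 CPM of the other 5 libraries.

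The balance of the 2 paralogs was compared as the ratio of their counts within each library, which does not depend on how libraries are scaled. In RNA, the Rpl22l1 to Rpl22 ratio was 1.497, 1.594, 1.04 and 0.769 in control mice 1, 3, 6 and 8 and 1.32, 1.29, 1.19 and 1.21 in KO mice 2, 4, 5 and 7. Controls spanned the KO values on both sides. The mean log2 ratio was 0.23 ± 0.49 (SD, n = 4) in controls and 0.32 ± 0.071 (SD, n = 4) in KO mice (exact two-sided permutation test, p = 0.743; 4 against 4 can reach 0.0286). In footprints the ratio was 1.396, 1.356 and 1.64 in control mice 1, 3 and 9 and 1.42, 1.44 and 1.66 in KO mice 2, 4 and 10. The mean log2 ratio there was 0.54 ± 0.15 (SD, n = 3) and 0.59 ± 0.13 (SD, n = 3; exact two-sided permutation test, p = 0.5; 3 against 3 cannot go below 0.1). Mice 9 and 10, which share a title prefix, had the highest ratios of their genotypes. Mice 1 and 2 and mice 3 and 4 also share one each. The footprint ratio of the KO mouse was the higher in each of these pairs, which the permutation test did not use. Over the 8 RNA libraries the standard deviation of the log2 ratio was 0.33 for Rpl22l1 and Rpl22, against 0.094 for Rpl7l1 and Rpl7 and 0.10 for Rpl36al and Rpl36a, the other pairs of ribosomal protein paralogs with both genes at 1 CPM or more. In the remaining 4 pairs, with a gene below 1 CPM, it ran from 0.19 to 1.08.

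The bases before the start sites of the paralogs are shown because their RNA levels varied separately across the libraries. They were read from RefSeq by symbol (GRCm38.p6), which holds 2 start sites of Rpl22 and 1 of Rpl22l1. The 100 bases before the outermost start of each gene are printed, both on the plus strand, at chr4:152324336-152324435 and chr3:28805408-28805507. Capitals mark TATAA, a motif of the TATA box, searched on both strands.
Rpl22: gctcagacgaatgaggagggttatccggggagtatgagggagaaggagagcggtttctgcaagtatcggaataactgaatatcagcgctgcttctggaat
Rpl22l1: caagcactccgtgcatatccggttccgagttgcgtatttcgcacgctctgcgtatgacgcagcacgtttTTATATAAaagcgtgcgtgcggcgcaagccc
The motif occurs before Rpl22l1, where a copy on each strand overlaps, and not in the window before either start of Rpl22. Of 32851 RefSeq windows of this length, 10.2% hold it on either strand. The printed windows have 5 CG pairs for Rpl22 (6 before its other start) and 13 for Rpl22l1, with a median of 3 over all windows. These are descriptions of the letters and no measure of promoter activity.

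The log2 fold change of Rpl22 in RNA lay near the middle of those of the other cytosolic ribosomal protein genes, 34 of which were called lower and 42 not called. Of 79 such genes in the list, 76 were tested in RNA, 34 fell and 0 rose in edgeR (0 higher at an unadjusted p under 0.05, and 0 with DESeq2), beside 3.88% lower and 3.53% higher over all genes. Of the 76, 72 had a negative log2 fold change, called or not, with a median log2 fold change of -0.22 against -0.0013 over all genes tested. The value of Rpl22 lay below 47 of the 76 and above 29, and that of Rpl22l1 below 35 and above 41. The largest falls were those of Rps28 (-0.57 ± 0.065, adjusted p = 0.00034, edgeR) and Rps14 (-0.47 ± 0.074, adjusted p = 0.0024, edgeR) of the small subunit and Rpl35 (-0.55 ± 0.067, adjusted p = 0.00038, edgeR) of the large subunit. The count of falls was 3 with KO mice 2, 4 and 7 summed (0.579% of all genes called) and 7 with only mice 5 to 8 (0.652%), while the medians were -0.21 and -0.26. In mice 1 to 4 alone (24.1%) 3 list genes rose and 42 fell, and without control mouse 8 it was 1 and 36. Rps28 and Rpl35 were still called with KO mice 2, 4 and 7 summed, and Rps14 was not. With control mice 1 and 3 summed as well, 2 list genes fell (36 of 13669 genes called). Rps28 was still called there, and Rpl35 was not (-0.56, adjusted p = 0.0510, edgeR). Left out singly, KO mice 2, 4 and 7 and control mouse 6 each brought the count to between 14 and 17.

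In footprints and TE, list genes that were called were mostly higher in the KO, and neither paralog was called. Of the 37 list genes with enough footprints, 15 rose and 1 fell, beside 11.9% higher and 13.6% lower over all genes (20 and 1 of the list with plain library sizes). The median was 0.18, against 0.0055 over all genes. The share of rises depended on the filter on low counts. Without it 75 list genes were tested, of which 17 rose and 1 fell. Of these 75, 27 had a negative log2 fold change, against 9 of the 37. By edgeR, Rpl23 (1.37 ± 0.17, adjusted p = 1.3e-10), Rpl37 (1.17 ± 0.25, adjusted p = 0.00016) and Rpl35a (0.92 ± 0.24, adjusted p = 0.0019), all of the large subunit, rose most, and Rps25 fell (-0.54 ± 0.16, adjusted p = 0.0078, edgeR). With DESeq2, 10 rose and 0 fell, and 6 of the 37 received no adjusted p. Among those 6 were Rpl37 and Rpl35a, with log2 fold changes of 1.16 and 0.92, while Rps25 was not called (-0.54, adjusted p = 0.0612, DESeq2). In TE, 19 of 37 rose and 0 fell in edgeR (0 lower at an unadjusted p under 0.05, and 0 with DESeq2), beside 3.4% higher and 4.41% lower over all genes. Without the filter on low counts 20 of 75 rose and 1 fell. With the filter, the count of rises was 12 without control mouse 9, 13 without KO mouse 2 and 14 once RNA counts of KO mice 2, 4 and 7 were added up. The median was 0.37, and the largest rises in edgeR were those of Rpl23 (1.69 ± 0.18, adjusted p = 5.0e-06), Rpl37 (1.47 ± 0.22, adjusted p = 0.00020) and Rpl35a (1.19 ± 0.25, adjusted p = 0.0048), whose call was lost in mice 1 to 4 alone. Rpl22 and Rpl22l1, with TE changes of 0.17 and 0.18, each lay above 9 and below 28 of the 37. Whether the paralogs differ from the list in footprints or TE was not tested.

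**Figure D3:**
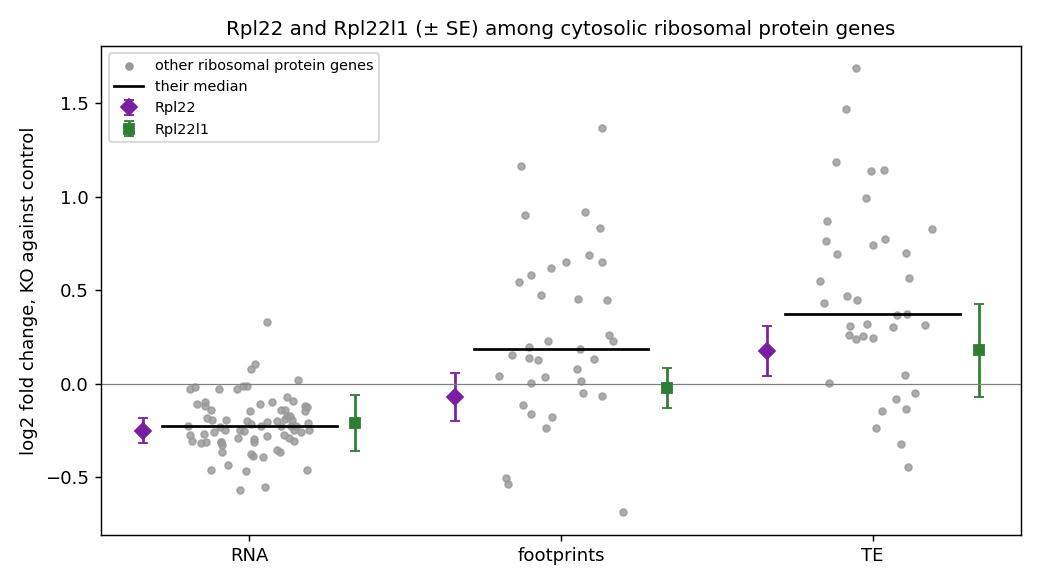
Log2 fold changes (KO against control) in RNA, footprints and TE for Rpl22 (diamonds) and Rpl22l1 (squares), with SE bars, beside the other cytosolic ribosomal protein genes (grey points; black lines are their medians). Rpl22 and Rpl22l1 sit near the list median of -0.22 in RNA and below the list medians of 0.18 in footprints and 0.37 in TE.

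Other ribosomal protein genes with a paralog were measured for comparison. Both members of the pair Rpl7 and Rpl7l1 fell in RNA, with log2 fold changes of -0.19 ± 0.048 (adjusted p = 0.0243, edgeR) and -0.29 ± 0.071 (adjusted p = 0.0256, edgeR). Both members of the pair Rpl36a and Rpl36al also fell, with log2 fold changes of -0.26 ± 0.070 (adjusted p = 0.0401, edgeR) and -0.31 ± 0.074 (adjusted p = 0.0217, edgeR). Rps27l, a paralog of Rps27 known as a p53 target, went from 17.4 ± 2.07 to 11.8 ± 0.722 CPM (SD, n = 4 each), a log2 fold change of -0.56 ± 0.11 (adjusted p = 0.0075, edgeR), while Rps27 itself is listed at 0 in every library. Rps4x fell by 0.29 ± 0.063 (adjusted p = 0.0140, edgeR). Rpl3, Rpl10 and Rpl39 did not pass the test in RNA (adjusted p = 0.413, 0.352 and 0.944, edgeR), and their paralogs Rpl3l, Rpl10l and Rpl39l were below 1 CPM. Each of these 6 calls, beside 7.41% of all genes called in RNA, was lost with KO mice 2, 4 and 7 summed and with only mice 5 to 8. Those of Rpl7, Rpl7l1, Rpl36a and Rpl36al were also lost without mouse 1, 2, 3, 4 or 7. Without mouse 6 the calls of Rpl7, Rpl7l1 and Rpl36a were lost. Rps4x was not called without mouse 2, 4 or 6 either, and Rpl36a not with the title prefix as a block (adjusted p = 0.0517, edgeR). In the exon columns Rpl7l1 was at -0.11 (adjusted p = 0.282, edgeR) and Rpl36al at -0.22 (adjusted p = 0.0647, edgeR). In footprints, 6 genes of these pairs were tested, beside 25.5% of all genes called, and Rpl36al was the 1 called, moving from 6.08 ± 1.21 to 13.4 ± 0.170 CPM (SD, n = 3 each; log2 fold change 1.12 ± 0.19, adjusted p = 1.2e-06, edgeR). In TE, 3 of the same 6 rose, beside 7.81% of all genes called. They were Rpl36al (1.42, adjusted p = 2.2e-05, edgeR), Rpl7 (0.45, adjusted p = 0.0111, edgeR; not called without mouse 2 or 9) and Rpl7l1 (0.44, adjusted p = 0.0465, edgeR; not called under 10 of 17 alternatives).

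Loss of Rpl22 is known to raise p53 in developing T cells, and Smad1 has been linked to Rpl22 in early haematopoiesis, so Trp53, its regulators Mdm2 and Mdm4, its target Cdkn1a and Smad1 were also read out. None of these 5 genes passed the test in RNA, with log2 fold changes from -0.088 for Smad1 to 0.42 for Cdkn1a, or in TE. At an unadjusted p under 0.05 it was 1 of 5 in RNA and 0 in TE (edgeR), and DESeq2 called 0 in both. Over all genes, 7.41% were called in RNA and 7.81% in TE by edgeR. An unadjusted p under 0.05 was reached by 3149 of 13507 genes in RNA and 2805 of 12145 in TE (edgeR). In footprints 1 of the 5 was called: Cdkn1a, an inhibitor of the cell cycle, rose from 14.9 ± 2.56 to 20.3 ± 0.790 CPM (SD, n = 3 each), a log2 fold change of 0.42 ± 0.14 (adjusted p = 0.0163, edgeR). That is 1 of 5 against the 25.5% of all genes called in footprints. The Cdkn1a call was lost with DESeq2, with all 14 libraries in one fit and without mouse 1, 3 or 4 (adjusted p up to 0.0974). Neither group lacks the floxed allele, so these values do not compare mice with and without it.

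The 2 nearest protein-coding genes on each side of Rpl22 and Rpl22l1 were read for comparison. Before Rpl22, Icmt, a methyltransferase of prenylated proteins, rose in RNA from 20.4 ± 1.49 to 27.3 ± 2.04 CPM (SD, n = 4 each; log2 fold change 0.42 ± 0.084, adjusted p = 0.0095, edgeR) and in footprints by 0.39 ± 0.13 (adjusted p = 0.0121, edgeR; not called with DESeq2 or without mouse 1, 2 or 4), and Rnf207 did not pass (0.66, adjusted p = 0.122, edgeR). The RNA rise of Icmt was 0.11 and not called in the exon columns, and it was not called with KO mice 2, 4 and 7 summed. After Rpl22, footprints of Chd5, a neuronal chromatin remodeller, fell from 271 ± 3.81 to 187 ± 9.13 CPM (SD, n = 3 each; log2 fold change -0.53 ± 0.041, adjusted p = 2.3e-20, edgeR), and its TE fell by 0.49 (adjusted p = 0.0064, edgeR) with RNA at -0.051 (adjusted p = 0.754, edgeR). In mice 1 to 4 with the replicate block the TE change of Chd5 was -0.27 (adjusted p = 0.0021, edgeR). Kcnab2, a potassium channel subunit beyond it, was called in none of the 3 comparisons. Beside Rpl22l1, Eif5a2, a translation factor, rose in footprints by 0.33 ± 0.11 (adjusted p = 0.0213, edgeR), a call lost with DESeq2, with all 14 libraries in one fit and without mouse 1 or 2. Egfem1 fell in RNA (log2 fold change -0.52 ± 0.12, adjusted p = 0.0207, edgeR), a call lost with KO mice 2, 4 and 7 summed and without mouse 1, 2, 6 or 7, and Slc2a2 and Gm1527 were at or near 0.

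The genes whose RNA levels followed each paralog most closely over the 8 libraries were different ones. For Rpl22 they were Zbtb18, Ccdc3, Dtd1, Nell1 and Atp6v0b, with Pearson correlations of log2(CPM + 1) of 0.988 to 0.966 among 10028 genes. For Rpl22l1 they included Ppfibp1, Ktn1, Lmo7 and Vps13c, with correlations of 0.989 to 0.980. The correlation of the paralogs with each other was 0.117. The points share 2 genotypes, 3 title prefixes and the nearly identical libraries of KO mice 2, 4 and 7, and the highest of 10028 correlations over 8 points are high by selection. None of the genes named here was called between genotypes in RNA (adjusted p of 0.0511 for Nell1 to 0.667 for Ktn1, edgeR), with 4 at an unadjusted p under 0.05 and 1 called by DESeq2.

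**Figure D4:**
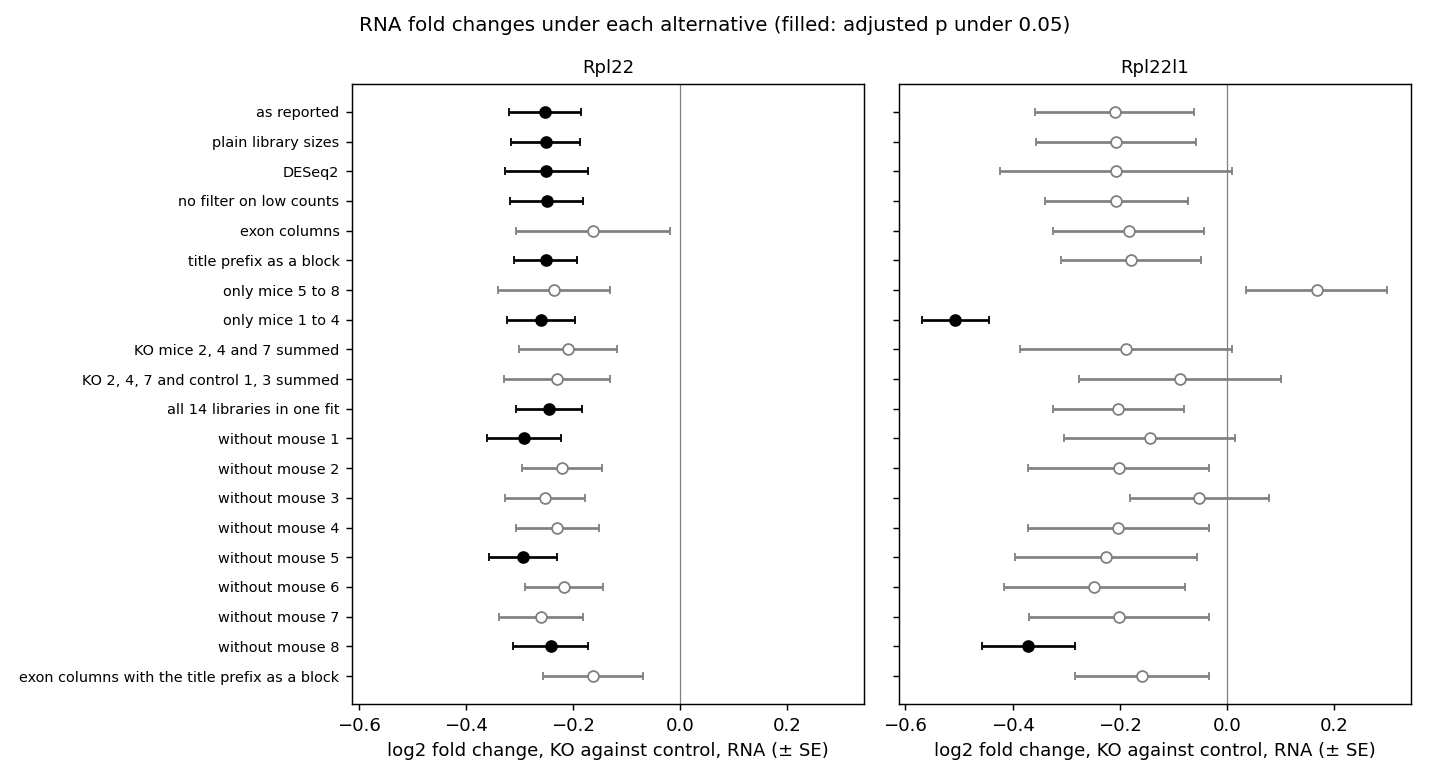
Log2 fold changes in RNA (KO against control, ± SE) of Rpl22 (left) and Rpl22l1 (right) under each way of processing named at the left, filled where the adjusted p-value is under 0.05. Rpl22 stays between -0.29 and -0.16, with filled and open points, and Rpl22l1 runs from -0.51 in mice 1 to 4 to 0.17 in mice 5 to 8.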

How the data were processed

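Counts per gene were deposited by the authors as one table of whole numbers for 23412 genes without normalization. Per the submitters' processing notes, Bowtie2, STAR 2.5, featureCounts and Subread 1.4.6 and the builds mm9 and mm10 were used; which build the counts refer to is not given in the sources used here. Per the labels' protocols, RNA was depleted of ribosomal RNA and made into strand-specific libraries, and footprints came from monosomes on a sucrose gradient. The matched columns held no value for 2849 genes. Of the gene names, 27 read as dates and were tested but are not named. Symbols of 92.1% of genes matched RefSeq, which was used for names, neighbours and start sites.

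RNA and footprints were each tested with edgeR 4.0.16 (R 4.3.3; quasi-likelihood F test, two-sided, TMM, filterByExpr at a minimum count of 10, group means only), and TE as the interaction of genotype and assay over 14 libraries, with Benjamini-Hochberg adjustment over all genes. Standard errors were derived from the F statistic. Outside counts are exon minus matched counts, for genes where this was never negative (93 genes had a matched count above the exon count). Ratios of 2 genes used log2 of counts plus 0.5. Exact permutation tests ran over libraries (scipy 1.17.1). The tests were checked on simulated data. Alternatives were plain library sizes, DESeq2 1.42.0, no filter, exon columns, the title prefix as a block, subsets of mice, summed libraries and leaving out each mouse. The interaction between subsets, the exon columns with the prefix block and the minimum of 200 counts were added after seeing the data.

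Replicates are separate mice per the labels. RNA and footprint libraries of mice 1 to 4 are paired, since the labels give both assays for the same mouse; deviations of same-numbered libraries from their group means correlated at -0.0123 to 0.0353 over 12145 genes. Intervals for shares are Wilson intervals at 95% and cover counting error only, since PCR copies are not independent molecules. Named genes were Fmr1, the 5 genes most correlated with each paralog (1 of which is not reported here), the 3 largest rises and falls of called genes of the ribosomal list per comparison, genes of the paralog list with at least 1 CPM, the 2 nearest protein-coding genes on each side and a list linked to Rpl22. The genes and lists were chosen with earlier results of these data known.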

Additional observations from a re-analysis of the deposited data

Results flagged for a closer look

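Of 18 groups of 4 libraries examined for a library far from the rest, 5 had one, where chance gives about 1 in 20 for independent groups. In 4 of the 5 it was KO mouse 5, and the other 3 KO libraries are the nearly identical ones. The groups are not independent, so 5 of 18 cannot be set against 1 in 20. Matched and exon values of Rpl22l1 are nearly the same measurement, and the outside level and share of Rpl22 come from the same counts. Rpl22 outside its matched columns was at 105 CPM in KO mouse 5, against 37.6 to 45.6 CPM in the other KO mice, and its share of exon counts in the matched columns was 51.1%, against 70.1% to 72.4%. Rpl22l1 was at 105 CPM in the matched columns of KO mouse 5 (99.1 to 99.4 CPM in the others) and at 57.0 CPM in its exon column (54.8 to 55.1 CPM). The share of Rpl22l1 was 99.48% in KO mouse 4, from 6 outside counts, and 100% in the other 3.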

How the results depend on the processing

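Direction was kept by Rpl22 in RNA, footprints and TE under every alternative run. Without 1 mouse its footprint change ran from -0.14 to -0.033 and its TE change from 0.10 to 0.25; footprints were at -0.011 with plain library sizes and TE at 0.10 with exon columns. Its RNA call was lost in the exon columns (-0.16), also with the title prefix as a block (-0.16), with only mice 5 to 8 (-0.24) and with KO mice 2, 4 and 7 summed, alone (-0.21) or with control mice 1 and 3 summed (-0.23). Without 1 mouse the RNA value ran from -0.29 to -0.22. Rpl22l1 RNA reversed with only mice 5 to 8 (0.17), was called in mice 1 to 4 (-0.51), and without 1 mouse ran from -0.37 to -0.051, called at -0.37 without control mouse 8. Rpl22l1 footprints reversed with plain library sizes (0.037) and without mouse 4 (0.022), within -0.071 to 0.022 over left-out mice. Rpl22l1 TE was called in mice 1 to 4 with the replicate block (0.46) and without it (0.45), reversed without control mouse 3 (-0.0083), and without 1 mouse ran from -0.0083 to 0.34. In the same mice the replicate block changed no call of the paralogs. Rpl22 outside counts ran from -0.49 to 0.20 over left-out mice, reversed without mouse 2 (0.10), 4 (0.13), 6 (0.076), 7 (0.067) or 8 (0.20). Its share difference (percentage points) ran from -4.46 to 2.71, positive without KO mouse 5. The Rpl22l1 share difference ran from -0.097 to 0.077 over left-out mice, positive without KO mouse 4, and was 0.12 with only mice 5 to 8. The Rpl22l1 to Rpl22 ratio reversed in RNA without control mouse 8 (-0.11; -0.11 to 0.24 over left-out mice) and in footprints without mouse 3 (-0.0090) or 10 (-0.029; -0.029 to 0.13 over left-out mice). In footprints, leaving out 1 mouse breaks a pair that shares a title prefix. With only mice 5 to 8 the RNA ratio difference was 0.42, against 0.090 in the main comparison. The causes were not tested.

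Counts of called genes moved by more than 1.5 times. In RNA (1001) it was 88 with only mice 5 to 8, 3273 with mice 1 to 4, 79 and 36 with the sums, 1734 in one fit and 356 to 1763 without 1 mouse. In footprints (3102) it was 1821 with DESeq2 and 1673 in one fit. In TE (949) it was 1868 with the replicate block, 1806 without it in the same mice, 543 with the summed RNA and 419 or 463 without mouse 2 or 4. For outside counts (314) it was 186 with the prefix block and 57 to 977 without 1 mouse. Depth was lowest in footprints, with 86 to 174 counts of a paralog per library and standard errors of 0.13 (Rpl22) and 0.11 (Rpl22l1) on the log2 fold changes.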
